A study of Mus musculus with 5 samples.

Results

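Apoe, Fabp7, Glul, Gja1, Slc1a3 and Sox10 are 6 genes by which satellite glia are usually recognised, and they were followed here through every cell type of the mouse dorsal root ganglion (DRG). They were chosen by symbol, each matched 1 row of the deposited matrix, and they are 6 of the 17267 rows that name a mouse gene. The cells were dissociated from lumbar DRGs of untreated, wild type C57BL/6 mice, adult animals of both sexes, and were captured in droplets with a 3′ assay. Each transcript caught in a droplet is tagged with its own molecular identifier (UMI), so that copies made in the library count once. All 5 libraries belonged to 1 condition, each was taken as 1 mouse, and they are called library 1 to library 5. The authors assigned each of 3352 cells to 1 of 14 types, namely 12 types of neurons, 249 satellite glia and 56 endothelial cells. The paper gives the sexes together, so no library was given a sex.

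Satellite glia wrap the cell bodies of sensory neurons and arise, like Schwann cells, from the neural crest. They carry lipids to their neighbours, take up glutamate and turn it into glutamine, and are joined to each other by gap junctions, which let ions and small molecules pass from cell to cell. Apoe encodes the lipid carrier apolipoprotein E, and Fabp7 a protein that binds fatty acids inside the cell. Slc1a3 encodes the glutamate transporter GLAST, Glul encodes glutamine synthetase, Gja1 encodes the gap junction protein connexin 43, and Sox10 is a transcription factor of neural crest glia.

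The libraries held between 164 and 1370 cells and between 13050375 and 88886919 UMIs. They contributed 19, 53, 80, 75 and 22 satellite glia and 3, 16, 16, 14 and 7 endothelial cells, so values of endothelial cells rest on few cells. The median satellite glia cell had 17729 UMIs, against 16889 in endothelial cells and 62779 in neurons. A level below is in CPM, the UMIs of a gene per 1000000 UMIs of the same type in the same library, given as mean ± SD over 5 libraries. The label of the satellite glia was checked against 9 marker genes, which summed to between 17524 and 19836 CPM in satellite glia and to between 1072.3 and 1904.5 CPM in neurons. Schwann cell markers were present too, at between 1460.8 and 2441 CPM in satellite glia and between 654 and 839 CPM in neurons. Of 10 macrophage markers, 6 had a UMI in satellite glia, and the list summed to between 17.4 and 55.5 CPM there and to between 4.61 and 7.55 CPM in neurons. Cd68, a lysosomal protein, gave most of that sum, with a mean of 27.6 CPM and a UMI in 30.1% of the satellite glia, while Aif1, Csf1r, Cx3cr1 and Ptprc had none. In 7 cases a cell barcode occurred in 2 libraries, and none of these cells was a satellite glia cell.

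In GENCODE M21 on GRCm38, the build of the deposited counts, Apoe lies on the minus strand at chr7:19696109-19699188 and Fabp7 on the plus strand at chr10:57784881-57788450. Glul lies on the plus strand at chr1:153899944-153909723, where its first bases overlap the miRNA gene Mir8114 on the same strand and the gene Teddm2 on the other. Gja1 lies on the plus strand at chr10:56377330-56402513, Slc1a3 on the minus strand at chr15:8634124-8710764 and Sox10 on the minus strand at chr15:79154908-79165240. Slc1a3 contains Gm37310, an unconfirmed transcript on its own strand. The RefSeq table of promoters on GRCm38.p6 held windows for 5 of the 6 genes, with 3 windows for Apoe.

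The promoters of 3 genes are shown, namely Apoe, the gene with the highest level, and the glutamate transporter Slc1a3, both concentrated in satellite glia, and Glul, which was found in every type. Each run is the 250 bases before the RefSeq start site, read 5′ to 3′ on the strand of the gene, and capitals mark the letters ACAAT or ACAAAG on either strand, the core letters bound by SOX proteins. The runs are chr7:19699189-19699438 on the minus strand for Apoe, chr15:8710808-8711057 on the minus strand for Slc1a3 and chr1:153899679-153899928 on the plus strand for Glul.
Apoe: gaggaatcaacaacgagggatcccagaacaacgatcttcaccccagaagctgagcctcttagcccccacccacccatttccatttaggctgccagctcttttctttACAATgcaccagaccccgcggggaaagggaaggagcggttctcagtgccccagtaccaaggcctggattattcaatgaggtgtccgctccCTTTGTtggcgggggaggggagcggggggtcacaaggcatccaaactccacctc
Slc1a3: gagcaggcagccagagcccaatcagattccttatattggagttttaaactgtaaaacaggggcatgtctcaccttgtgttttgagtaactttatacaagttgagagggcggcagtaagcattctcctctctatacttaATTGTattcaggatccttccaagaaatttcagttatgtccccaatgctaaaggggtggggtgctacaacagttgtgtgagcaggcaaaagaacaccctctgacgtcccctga
Glul: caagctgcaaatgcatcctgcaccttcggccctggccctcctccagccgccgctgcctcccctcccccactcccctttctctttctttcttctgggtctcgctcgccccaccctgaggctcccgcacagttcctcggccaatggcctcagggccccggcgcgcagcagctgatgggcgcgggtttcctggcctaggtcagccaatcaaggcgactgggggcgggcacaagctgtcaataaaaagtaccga
The Apoe window held ACAAT, starting 144 bases before the start site, and ACAAAG on the opposite strand, starting 54 bases before it. The Slc1a3 window held ACAAT on the opposite strand, starting 112 bases before the start site, and that of Fabp7 held it on the opposite strand, starting 198 bases before it. The windows of Glul and Gja1 and the other two windows of Apoe held neither. ACAAT occurred in 27.7% and ACAAAG in 16.5% of all 32851 RefSeq windows of this length, and either in 38.8%, so such matches are common and are a description only.

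All 6 genes had their lowest library in satellite glia above the highest library of any neuron type. The share of all genes that do so was not counted, so this is a description only. The fold between those libraries was smallest for Glul, at 2.03, and largest for Fabp7, at 116. Tested between the sums of satellite glia and of all neurons with edgeR's quasi-likelihood test, where a gene was called at an adjusted p under 0.01 and at least a 2-fold difference, 6 of 6 genes were called higher in satellite glia. Among all 12109 genes tested, 21.6% were called higher. In neurons, Gja1, Slc1a3 and Sox10 had 46, 94 and 39 UMIs and passed the filter on low counts through satellite glia. The 6 genes were picked as genes of satellite glia, and the types were named from these same counts. The folds therefore give the size of a known difference and do not test it.

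Apoe had 78916 ± 9199 CPM in satellite glia (SD, n = 5), took 7.89% of their UMIs and was the first gene by UMIs in 5 of 5 libraries. By library it had 91605, 69981, 77927, 84347 and 70721 CPM there. In neurons it had 105, 229, 227, 119 and 101 CPM, and no library of the neurons came near a library of the satellite glia. The log2 fold change over neurons was 9.14 with an SE of 0.31 (edgeR, adjusted p = 2.29e-14). In single satellite glia Apoe took between 0.689% and 13.3% of the UMIs of the cell, with a median of 8.44%. It was above 1% of the UMIs in 247 of 249 satellite glia, in 3 of 56 endothelial cells and in 6 of 3047 neurons.

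Fabp7 had 7966 ± 1649 CPM in satellite glia and 11.6 ± 5.35 CPM in neurons (SD, n = 5). By library it had 8769.9, 6366, 7158, 10461 and 7078 CPM in satellite glia and 5.24, 17.9, 16.2, 10.5 and 8.06 CPM in neurons. The fold over neurons, 9.57 on the log2 scale with an SE of 0.34 (edgeR, adjusted p = 5.55e-14), was close to that of Apoe. Apoe and Fabp7, the lipid carrier and the fatty acid binding protein, were also the pair that moved together most closely in single satellite glia. Over 249 cells, with the mean of each library removed, Spearman's rho between their values of log2(CPM + 1) was 0.644 and Pearson's r was 0.828. This is a description of cells that share libraries, and the correlation within a library lay between 0.429 and 0.878. Apoe and Fabp7 had medians of 1467 and 141 UMIs per satellite glia cell, against 9 or fewer for the other members. The pairs were therefore not compared at like counts.

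Slc1a3, the glutamate transporter, had 55.5, 92.6, 68.6, 90.3 and 83.7 CPM in satellite glia of libraries 1 to 5. In neurons it had between 0.238 and 0.89 CPM. All libraries of satellite glia lay above all libraries of neurons, with a log2 fold change of 7.6 and an SE of 0.26 (edgeR, adjusted p = 2.81e-14). Gja1, the gap junction gene, had 141, 95.3, 108, 99 and 136 CPM in satellite glia and between 0.12 and 0.519 CPM in neurons. Its log2 fold change over neurons was 9.13 with an SE of 0.25 (edgeR, adjusted p = 2.04e-15). Slc1a3 and Gja1 passed the filter on low counts through satellite glia, with 94 and 46 UMIs in neurons.

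Glul was the exception in this group. It had 466, 426, 534, 640 and 627 CPM in satellite glia and 115, 102, 119, 105 and 113 CPM in neurons. The groups did not overlap, but the log2 fold change over neurons was only 2.44 with an SE of 0.12 (edgeR, adjusted p = 4.61e-12). Satellite glia held 8.93% of all Glul UMIs in the series. For the other five genes they held between 69.9% for Gja1 and 93% for Fabp7.

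**Figure D1:**
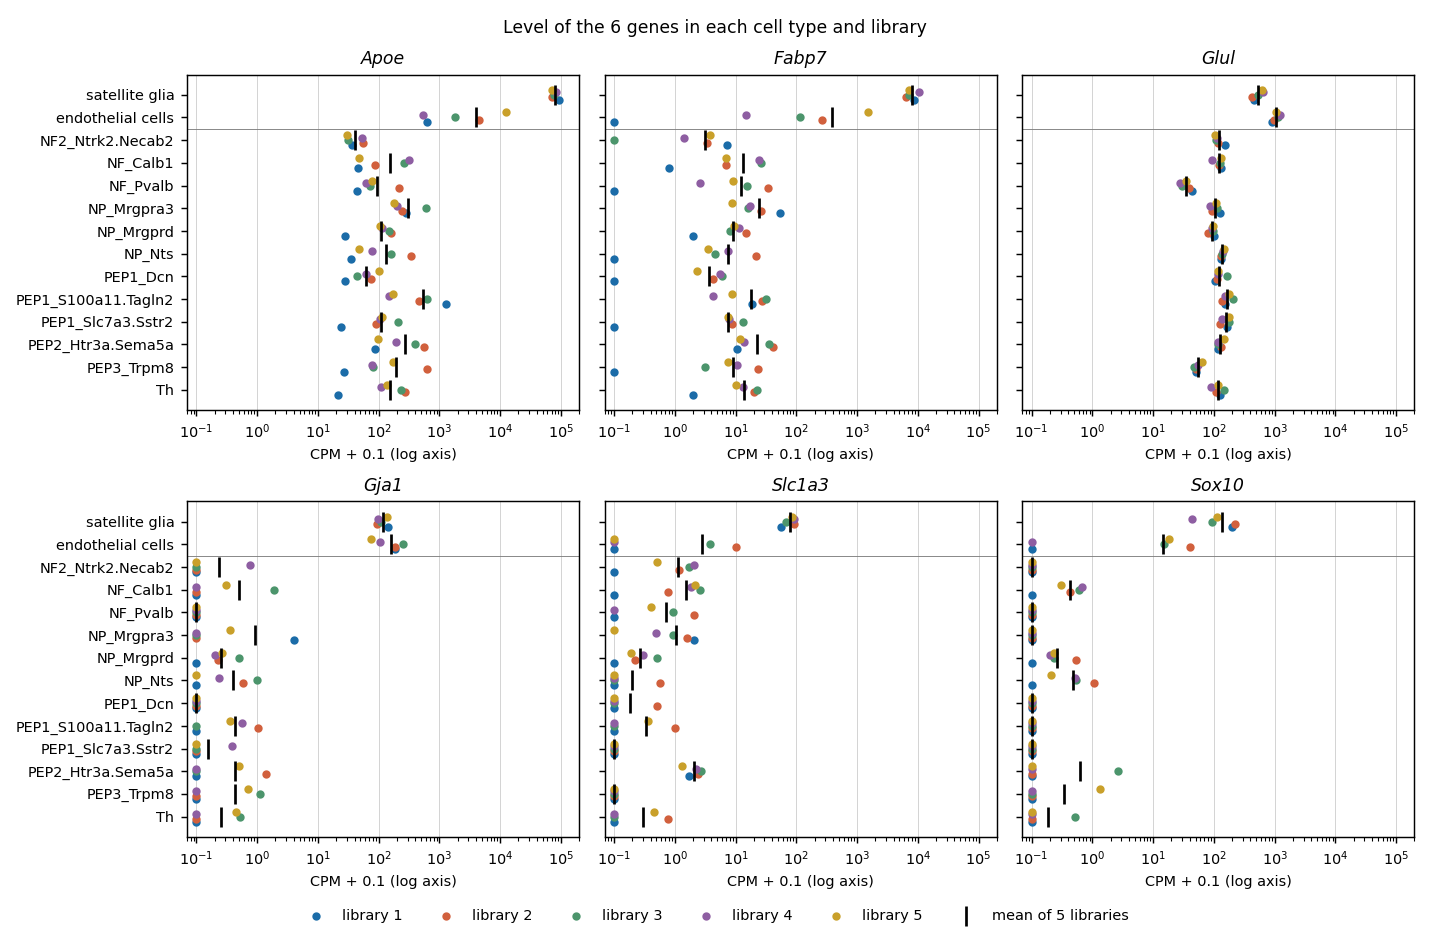
Level of each gene in CPM + 0.1, on a log axis, in each of the 14 types, with a point per library and a bar at the mean of 5 libraries. Apoe, Fabp7, Slc1a3 and Sox10 were highest in satellite glia, Glul and Gja1 had their highest mean in endothelial cells, and Glul stayed between 28 and 210 CPM in every library of every neuron type.

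Endothelial cells, the second type that is not neuronal, split the 6 genes. Between satellite glia and endothelial cells, 4 of 6 genes were called higher in satellite glia, against 22.3% of the 4046 genes tested, and 1 of 6, Glul, was called lower, against 21.5%. Gja1 was not called. Here too the genes were picked as genes of satellite glia and the types named from these counts, so the folds give sizes only. Slc1a3 and Sox10 had 4 and 18 UMIs in endothelial cells and passed the filter on low counts through satellite glia. Glul had 892, 983, 1137, 1206 and 1044 CPM in endothelial cells and was higher there than in satellite glia in 5 of 5 libraries, with no overlap. The log2 fold change of Glul, satellite glia over endothelial cells, was -1.11 with an SE of 0.16 (edgeR, adjusted p = 9.72e-06). The difference lay close to the 2-fold limit and was not called without library 3, at -0.87, with total UMIs in place of TMM factors, at -0.98, or with no filter on low counts, at -0.81.

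Gja1 had 189, 185, 255, 104 and 73.9 CPM in endothelial cells and was higher there than in satellite glia in 4 of 5 libraries. The ranges overlapped, and the log2 fold change, satellite glia over endothelial cells, was -0.72 with an SE of 0.26 (edgeR, adjusted p = 0.02), so neither type was called higher. With sums of at least 10 cells it was -0.93 and without library 5 -0.9 (edgeR, adjusted p = 0.00468 and 0.0047), both under 2-fold. Without library 3 it was -0.21 (edgeR, adjusted p = 0.534). Gja1 had a UMI in 80.4% of endothelial cells (exact 95% interval 67.6 to 89.8%) and in 80.7% of satellite glia (75.3 to 85.4%), at like depths. In neurons it had a UMI in 1.25% (0.884 to 1.71%), although they were deeper.

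Apoe, Fabp7, Slc1a3 and Sox10 had log2 fold changes over endothelial cells of 4.19 (SE 0.67), 4.33 (SE 0.71), 4 (SE 0.47) and 2.65 (SE 0.62), with adjusted p of 2.89e-05, 4.09e-05, 8.57e-07 and 0.00111 in edgeR. Without library 5 the folds of Apoe and Fabp7 were 5.26 and 5.9, and with the library as a replicate block 5.23 and 5.41. With sums of at least 10 cells they were 4.88 and 5.61. Without library 2 those of Slc1a3 and Sox10 were 5.29 and 3.34. The level of Apoe in endothelial cells differed widely between libraries, at 635, 4409, 1791, 526 and 12491 CPM. A single cell gave 1189 of the 1352 Apoe UMIs in library 5, and another gave 792 of 1333 in library 2. Fabp7 in endothelial cells followed, with 0, 268, 114, 14.9 and 1515 CPM, and 157 of the 164 UMIs of library 5 came from 1 cell. The median endothelial cell of a library had between 532 and 1145 CPM of Apoe. The 9 satellite glia markers summed to between 583 and 2838 CPM in endothelial cells, and their part in these levels was not tested.

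Between endothelial cells and neurons, Apoe, Fabp7, Glul and Gja1 were called higher in endothelial cells, against 14.9% of the 11683 genes tested, and no member was called lower, against 43.9%. The log2 fold changes were 4.29 (SE 0.64) for Apoe, 4.51 (SE 0.67) for Fabp7, 2.88 (SE 0.14) for Glul and 9.17 (SE 0.37) for Gja1, with adjusted p of 7.27e-06, 6.62e-06, 9.03e-13 and 3.7e-14 in edgeR. Without library 5 they were 3.66 for Apoe and 3.51 for Fabp7, with the block 3.6 for Apoe, and with sums of at least 10 cells 3.68 for Fabp7. Gja1, with 46 UMIs in neurons, passed the filter on low counts through endothelial cells. Slc1a3 and Sox10 had too few UMIs in endothelial cells to pass the filter, with 4 and 18 UMIs over all 56 cells. With the library as a replicate block, where a mouse's own cells are compared, both passed the filter. Sox10 was called higher (log2 fold change 6.16, SE 0.81) and Slc1a3 was not (2.81, SE 1.11, edgeR adjusted p = 0.0195). Of 12797 genes tested in that fit, 2381 were called higher. With no filter Sox10 was called too (6.42) and Slc1a3 was not (3.03, edgeR adjusted p = 0.0192). Sox10 had a UMI in 7 of 56 endothelial cells. By library it had 0, 39.7, 14.8, 0 and 18.5 CPM there, and library 2 gave 12 of its 18 UMIs. The call of Sox10 rests on those few counts.

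In droplet data a cell can hold UMIs of free RNA as well as its own. As a description, the UMIs of neurons were set against the ratio of each gene to Apoe in the satellite glia of the same library. Empty droplets were not analysed here and neurons may hold Apoe of their own, so the part of free RNA in these counts was not tested. At that ratio the neurons would hold 3184 UMIs of Fabp7, 47.5 of Gja1 and 58.2 of Sox10. They held 2476, 46 and 39, with exact 95% Poisson intervals of 2379 to 2575, 33.7 to 61.4 and 27.7 to 53.3, which cover counting error only. Gja1 was within its interval, and Fabp7 and Sox10 were below the glial ratio, at 0.778 and 0.67 of it. For none of these 3 genes did neurons as a whole hold more than the glial ratio to Apoe gave. Among the 12 neuron types, the interval lay above the ratio for Fabp7 in 1, NF_Pvalb, with 86 UMIs (68.8 to 106) against 67.4, and for Gja1 in 1, NF_Calb1, with 8 UMIs (3.45 to 15.8) against 2.94, and for Sox10 in 0. A single cell gave 24.4% of those Fabp7 UMIs in NF_Pvalb, and another gave 37.5% of those Gja1 UMIs in NF_Calb1. The interval lay below the ratio in 8 types for Fabp7, in 0 for Gja1 and in 1 for Sox10.

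Glul did not keep that ratio. Neurons held 24078 Glul UMIs, against 231 at the glial ratio, a 104-fold excess. It was above the ratio in 5 of 5 libraries and in each of the 12 neuron types, with the smallest excess, 45.3-fold, in PEP3_Trpm8 and the largest, 369-fold, in NF2_Ntrk2.Necab2. Glul had a UMI in 96.8% of the neurons, and in 42.1% after each cell was thinned to 5000 UMIs, against 84.4% of satellite glia thinned alike.

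**Figure D2:**
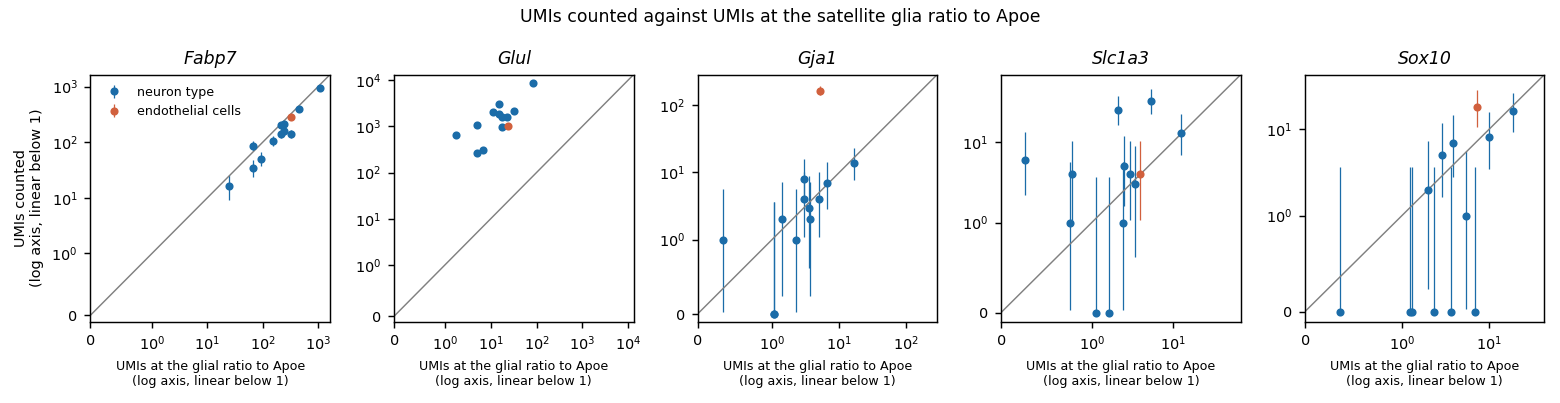
UMIs counted in each neuron type (blue) and in endothelial cells (orange) against the UMIs that the satellite glia ratio to Apoe in the same libraries gives, with exact 95% Poisson intervals and the line of equality. Both axes are logarithmic and linear below 1. Glul lay above the line in every type. Slc1a3 lay above it in 8 of 12 neuron types, with the whole interval above it in 4, and Gja1 had 165 UMIs against 5.26 in endothelial cells and its whole interval above the line in 1 neuron type.

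Slc1a3 was above the glial ratio in all neurons combined, with 94 UMIs (Poisson interval 76 to 115) against 35.7, and above it in 5 of 5 libraries. It was above the ratio in 8 of 12 neuron types, and in 4 of them the whole interval was. PEP2_Htr3a.Sema5a neurons held 32 UMIs against 5.29, in 21 of 206 cells, with 1.62, 2.29, 2.59, 2.15 and 1.19 CPM by library, and were above the ratio in 5 of 5 libraries. NF_Calb1 neurons held 25 UMIs against 2.13, in 23 of 180 cells, and were above it in 4 of 5 libraries. NF2_Ntrk2.Necab2 neurons held 6 UMIs against 0.261, in 6 of 58 cells, and NF_Pvalb neurons held 4 (1.09 to 10.2) against 0.782. The 900 NP_Mrgprd cells held 13 UMIs against 12.4, and PEP1_Slc7a3.Sstr2 and PEP3_Trpm8 held none. Taking 3 cells as the limit that a count of 0 allows, up to 0.877% and 1.79% of their cells could hold a UMI. These levels were far below the 78.1 ± 15.7 CPM of satellite glia (SD, n = 5), and no neuron library exceeded 2.59 CPM.

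Sox10 was at 0 UMIs in 6 of the 12 neuron types. This included PEP1_S100a11.Tagln2, the neuron type with the highest mean level of Apoe, where the glial ratio gave 6.87 UMIs. The largest number was 16 UMIs in NP_Mrgprd, against 18.6 at the glial ratio. Gja1 was at 0 in NF_Pvalb and PEP1_Dcn and had at most 14 UMIs in a neuron type. Only 1 of 3047 neurons held a UMI of all 6 genes, against 93 of 249 satellite glia. At least 4 of the 6 were found in 241 of 249 satellite glia and in 76 of 3047 neurons.

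Among neuron types, Glul gave the clearest order. The mean was highest in PEP1_S100a11.Tagln2, at 165 ± 29.3 CPM, followed by PEP1_Slc7a3.Sstr2 at 157 ± 24, NP_Nts at 138 ± 6.79 and PEP2_Htr3a.Sema5a at 126 ± 12.4 (SD, n = 5). PEP1_Dcn, NF_Calb1, NF2_Ntrk2.Necab2, Th, NP_Mrgpra3 and NP_Mrgprd followed between 123 and 93.2 CPM. Neighbours down to NP_Mrgprd overlapped in their libraries. The last 2 steps did not. PEP3_Trpm8 had 51.1, 51.3, 47.9, 55.8 and 64.3 CPM, below NP_Mrgprd in 5 of 5 libraries. NF_Pvalb had 44.1, 38.5, 29.4, 28 and 35.3 CPM and was below PEP3_Trpm8 in 5 of 5 libraries. 

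The test of any difference among the 12 neuron types called Glul (edgeR F-test, adjusted p = 2.6e-22), Apoe (adjusted p = 1.71e-05) and Fabp7 (adjusted p = 0.00298). It called 94.3% of the 11561 genes tested, so these calls say little about the members. Fabp7 was not called with sums of at least 10 cells (adjusted p = 0.0169) or without library 3, 4 or 5 (adjusted p = 0.0402, 0.0117 and 0.0125). Gja1, Slc1a3 and Sox10 did not pass the filter on low counts. With no filter, where 77.8% of 17237 genes were called, Slc1a3 was called (adjusted p = 4.9e-08) and Gja1 and Sox10 were not (adjusted p = 0.288 and 0.0516).

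Apoe in neurons varied more between libraries than Glul did. PEP1_S100a11.Tagln2 neurons had 1264, 468, 615, 148 and 174 CPM of Apoe, and Th neurons had 21.2, 268, 235, 111 and 138 CPM. Every pair of neighbouring neuron types overlapped. Single cells weighed on the small types, with 41.1% of the Apoe UMIs of PEP3_Trpm8 in 1 of its 168 cells. After thinning to 5000 UMIs, the share of cells with an Apoe UMI lay between 18.2% in NF2_Ntrk2.Necab2 and 31.2% in PEP2_Htr3a.Sema5a, and it was 100% in satellite glia.

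Within satellite glia, Sox10 set itself apart from the other five genes by its spread. By library it had 202, 227, 92.9, 44.3 and 113 CPM. The highest library was 5.12-fold above the lowest. For the other genes this ratio lay between 1.31 for Apoe and 1.67 for Slc1a3. The coefficient of variation of Sox10 over libraries was 56.4%, and among 1548 genes within 2-fold of its mean level in satellite glia, 13 (0.84%) had a higher one, with a median of 15.6%. Fabp7, at 20.7%, also had a higher one than each of the 15 genes within 2-fold of its level. The share of satellite glia with a Sox10 UMI was 100%, 90.6%, 66.2%, 45.3% and 59.1%. The median UMIs per satellite glia cell were 20118, 21150, 17407, 16511 and 15526, so the shares were counted at depths that differed too. All 5 libraries of satellite glia stayed above all neuron libraries, with a log2 fold change of 9.6 and an SE of 0.48 (edgeR, adjusted p = 3.97e-12). With 39 UMIs in neurons, Sox10 passed the filter on low counts through satellite glia.

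**Figure D3:**
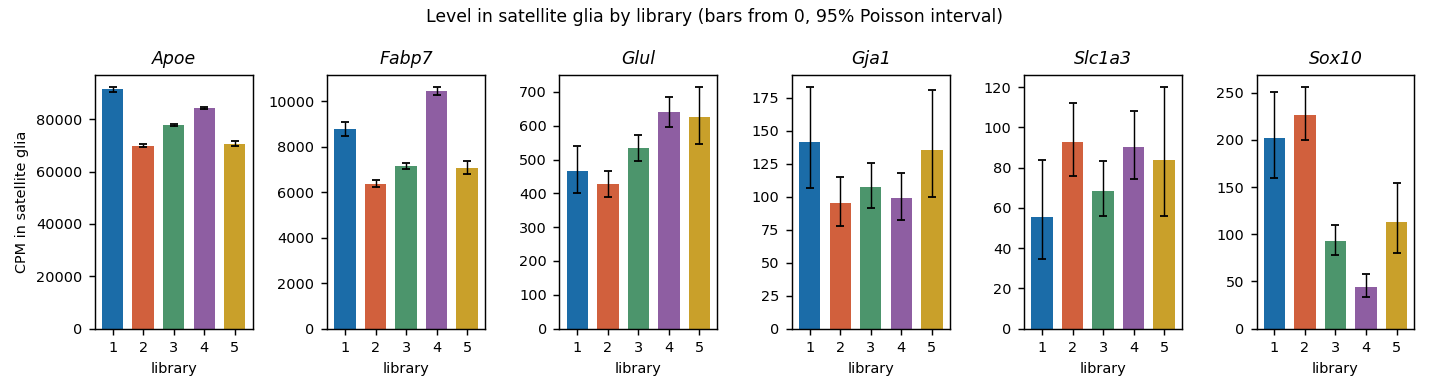
CPM of each gene in satellite glia of libraries 1 to 5, as bars from 0 with exact 95% Poisson intervals, which cover counting error only. Sox10 ranged from 44.3 to 227 CPM, while Apoe ranged from 69981 to 91605 CPM.

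The 12 Schwann cell markers summed to 1952, 2441, 1933, 1461 and 1571 CPM in satellite glia of libraries 1 to 5, so the sum, like Sox10, was highest in library 2 and lowest in library 4. Its part in the spread of Sox10 was not tested. Among these markers Egr2, a transcription factor of myelinating Schwann cells, had 45.4, 41, 55.5, 83.9 and 72.2 CPM and was highest in library 4. To describe the genes over cells with more or fewer UMIs of these markers, the satellite glia of each library were ranked by their summed CPM of the 12 markers and split into 3 groups of near equal size. The sum was 3.65-fold higher in the top group, of 81 cells in all, than in the bottom group, of 85 cells.

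Sox10 was higher in the top group in 5 of 5 libraries, at 167 ± 91.5 against 128 ± 82.3 CPM (SD, n = 5). The middle group, of 83 cells, had 113 ± 65.1 CPM, so Sox10 did not rise step by step with the markers. Apoe, Fabp7 and Glul were lower in the top group than in the bottom group in 5 of 5 libraries, with ratios of the means of 0.762, 0.713 and 0.655. Apoe had 65346 ± 17972 CPM in the top group against 85707 ± 5034 in the bottom group, and Glul had 410 ± 130 against 626 ± 97.9 CPM. Gja1 was higher in 2 of 5 libraries and Slc1a3 in 1 of 5, with ratios of 0.912 and 0.91. Within the bottom group Sox10 had 222, 205, 60.2, 42 and 109 CPM by library, and the markers summed to 1025.4, 996.5, 938.3, 840.3 and 822.8 CPM. The groups hold cells of the same libraries, and no test was made.

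**Figure D4:**
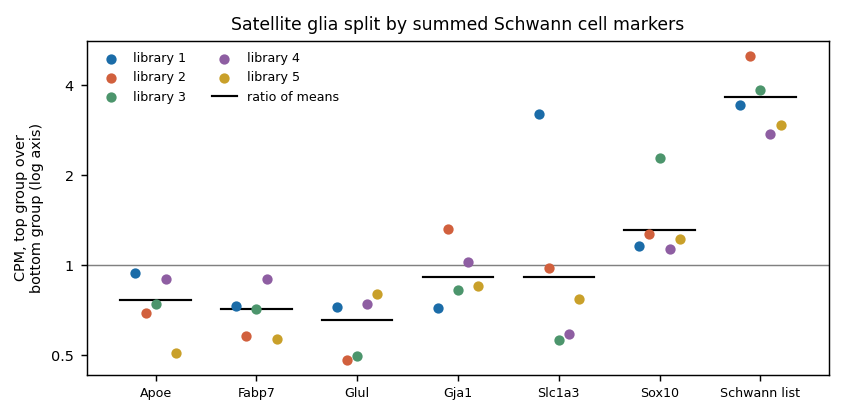
CPM in the top group of satellite glia, ranked by summed Schwann cell markers, over that in the bottom group, on a log axis, with a point per library and a line at the ratio of the means. Apoe, Fabp7 and Glul lay below 1 and Sox10 above 1 in all 5 libraries.

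In single satellite glia, Glul followed Apoe and Fabp7, with rho of 0.456 and 0.484 and r of 0.594 and 0.558 over 249 cells. These were again taken between values of log2(CPM + 1) after the mean of each library was removed. The correlation of Glul with Apoe was between -0.024 and 0.677 within libraries. The pairs that include Gja1, Slc1a3 or Sox10 had rho between -0.327 and 0.187. These 3 genes had a median of 1 or 2 UMIs per cell, so nothing was read from those pairs.

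Other genes of the same pathways were counted from lists that leave the members out. Genes of lipid transport and storage were more often higher than lower in satellite glia. Of 25 genes present, 24 were tested against neurons, 15 were higher, 3 were lower and 6 were not called, with a median log2 fold change of 2.04, against -0.35 for all genes tested, of which 21.6% were called higher and 32.6% lower. Dbi, which encodes a protein that binds acyl-CoA, had 13420 ± 912.6 CPM in satellite glia against 224 ± 27 in neurons. It is also 1 of the 9 markers by which the label of the satellite glia was checked, and it gave most of their sum. Its level here is thus the same observation as that check. The fatty acid binding protein Fabp5 had 1294 ± 218 against 431 ± 28.8 CPM, Npc2, a carrier of cholesterol in lysosomes, had 454 ± 55.9 against 170 ± 9.89 CPM, and the acyl-CoA synthetase Acsbg1 had 402 ± 92.1 against 0.621 ± 0.425 CPM (SD, n = 5). Fabp3 was lower in satellite glia, at 16.9 ± 4.4 against 93.1 ± 19.9 CPM, and so were the acyl-CoA synthetase Acsl5 and the lipoprotein lipase Lpl, with log2 fold changes of -1.51 (SE 0.15) and -2.23 (SE 0.7).

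Of 20 genes of glutamate and glutamine handling present, 19 were tested against neurons, 7 were higher, 7 were lower and 5 were not called, with a median log2 fold change of -0.17. Of all genes tested 21.6% were higher and 32.6% lower, and the number called lower was near that share. Slc1a5, a transporter of neutral amino acids including glutamine, had 112 ± 28.6 CPM in satellite glia against 3.72 ± 0.994 in neurons. Its relative Slc1a4 had 55.1 ± 16.1 against 24 ± 3.58 CPM, the GABA transaminase Abat had 51.7 ± 8.43 against 12.9 ± 2.24 CPM, and Slc1a2, the glutamate transporter GLT-1, had 20.2 ± 5.34 against 0.794 ± 0.162 CPM (SD, n = 5). On the side of the neurons were the glutamine transporter Slc38a1, at 3.04 ± 3.67 CPM in satellite glia against 24.9 ± 5.58 in neurons, the glutaminase Gls2, at 0.841 ± 1.03 against 6.07 ± 0.481 CPM, and the asparagine synthetase Asns, at 17.4 ± 13.6 against 168 ± 19.6 CPM.

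Among gap junction, pannexin and channel genes, 18 were present and 12 tested against neurons, of which 8 were higher, against 21.6% of all genes tested, and 3 lower, against 32.6%, with a median log2 fold change of 5.54. Atp1b2, which encodes a subunit of the sodium pump, was higher, at 211 ± 40.1 CPM in satellite glia against 1.12 ± 0.391 in neurons. The potassium channel Kcnj10, also 1 of the satellite glia markers used to check the label, had 211 ± 41 against 0.46 ± 0.273 CPM. The water channel Aqp4 had 51.1 ± 19 against 1.95 ± 0.354 CPM. Aqp1, a second water channel, went the other way, at 3.92 ± 3.02 against 182 ± 30.5 CPM, as did Panx2, a pannexin, at 1.81 ± 2.31 against 29.4 ± 2.3 CPM, and Cav1, a gene of caveolae, with a log2 fold change of -2.18 (SE 0.47).

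Transcription factors of neural crest glia were mostly higher in satellite glia, with 16 of 20 tested higher, 2 lower and 2 not called and a median log2 fold change of 3.86, against 21.6% higher and 32.6% lower of all genes tested. Id3 had 1775 ± 331 CPM against 30.5 ± 5.03 in neurons, and Sox2, a relative of Sox10, had 180 ± 41.4 against 0.357 ± 0.359 CPM. Zeb2 had 129 ± 32.1 against 22 ± 4.92 CPM and Nfia had 129 ± 37.7 against 61.3 ± 19 CPM (SD, n = 5). Id4 and Etv5 were lower, with log2 fold changes of -1.64 (SE 0.4) and -1.25 (SE 0.23). Against endothelial cells the same list gave 4 higher, 5 lower and 3 not called of 12 tested, where 22.3% of all genes tested were higher and 21.5% lower.

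**Figure D5:**
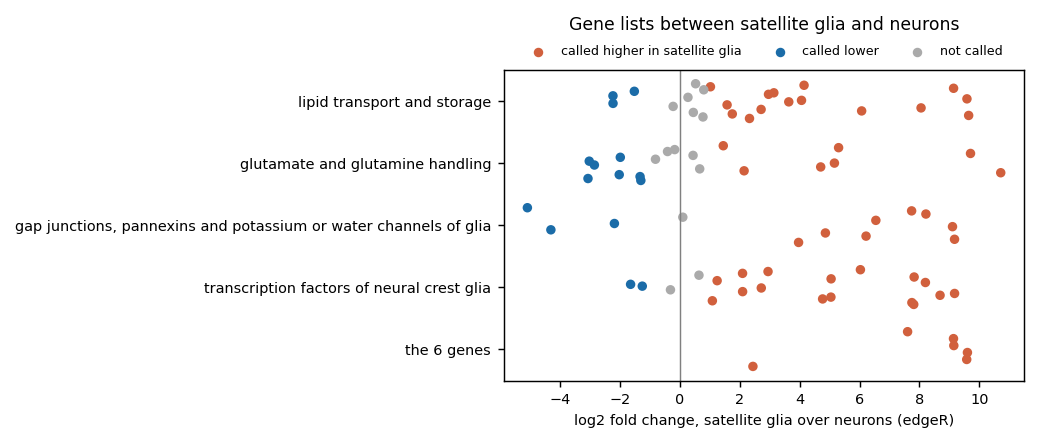
Log2 fold change of satellite glia over neurons for each tested gene of the 4 lists and for the 6 genes, with called genes in orange (higher) or blue (lower) and the others in grey; the vertical spread of points carries no value. Glul, at 2.44, lay apart from the other five, which were between 7.6 and 9.6.

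The genes with the most similar pattern were sought among 13474 genes by Pearson's r between values of log2(CPM + 1), taken over 66 sums of a type in a library with at least 5 cells. These sums share libraries and types, so the values are a description. Apoe and Fabp7 were most like each other (0.967), and Apoe was next most like Phgdh (0.959), an enzyme of serine synthesis. Slc1a3 was most like I730030J21Rik (0.935), Enpp1 (0.931) and Igsf11 (0.931), and Sox10 like Adgrg6 (0.966), a receptor of Schwann cells, Afap1l2 (0.964) and P2rx7 (0.956), a receptor for ATP. Glul was most like genes that were also higher in endothelial cells than in satellite glia, namely Mat2a (0.921), Ptpn12 (0.903) and Eva1b (0.89). Gja1 was most like Osgin1 (0.981), Mdfic (0.976) and the receptor gene Notch1 (0.975).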

How the data were processed

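The authors counted UMIs with Cell Ranger on mm10, selected, integrated and clustered the cells with Seurat, named the clusters from marker genes, and deposited raw UMI counts per gene and cell, without normalization, and a cell type per cell. The 5 library identifiers carried by the cell names were read as 5 mice. Of 17271 rows, 4 that name no mouse gene were left out (6.37e-05% of UMIs). No cell was removed and no doublet caller was run. Members and lists were chosen with earlier results of these data known.

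UMIs were summed per type and library and tested with edgeR 4.0.16 in R 4.3.3 (filterByExpr, TMM, quasi-likelihood, Benjamini-Hochberg over all genes tested). The scripts were tested on simulated data. From each list were named up to 4 genes called higher with the highest glial level and up to 3 called lower with the largest fold, and up to 3 genes alike per member; some genes that this rule names are not reported here. After group means were removed, sums of the same mouse correlated at between 0.000449 and 0.144 across genes. The mouse entered as a replicate block in an alternative. Other alternatives were DESeq2 1.42.0, total UMIs, no filter, sums of at least 10 cells, a UMI in at least 25% of cells and leaving out each library.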

Additional observations from a re-analysis of the deposited data

Results flagged for a closer look

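A library stood apart from the other four, by the gap to its nearest neighbour relative to the range, in 8 of 53 levels of a member in a type with at least 20 UMIs. By chance about 1 in 20 would do so if the values were normal and independent, whereas levels of these genes share libraries. Apoe was high in library 2 in NF_Pvalb (217 CPM against 44.1 to 76.2 in the others) and in PEP3_Trpm8 (622 against 27 to 172), and in library 3 in NP_Mrgpra3 (606 against 176 to 284). These sums held 13, 18 and 11 cells. Fabp7 in endothelial cells was high in library 5, at 1515 CPM against 0 to 268, in 7 cells. Glul was high in library 1 in NF2_Ntrk2.Necab2 (154 CPM against 105 to 119, in 3 cells) and in library 3 in PEP1_Dcn (164 against 106 to 116). Glul was low in library 4 in NF_Calb1 (94.5 CPM against 122 to 132) and in library 2 in NP_Mrgprd (80.1 against 94.4 to 99.6, in 128 cells).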

How the results depend on the processing

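Of 121 recomputed counts of genes or members, 119 stayed within 1.5 times their value. With no filter on low counts, the genes higher and lower in satellite glia than in endothelial cells numbered 1951 and 1438. Of 160 recomputed log2 fold changes of members, 157 kept their direction and stayed called or not called. The other 3 were those of Glul between satellite glia and endothelial cells given above. Gja1 there crossed the threshold of adjusted p alone in settings given above and stayed uncalled. The replicate block changed 1 call of a member, that of Sox10 between endothelial cells and neurons. Total UMIs in place of TMM factors moved the median log2 fold change of all genes from -0.35 to -0.52 between satellite glia and neurons, from 0.05 to 0.2 between satellite glia and endothelial cells, and from -1.25 to -0.89 between endothelial cells and neurons. No level in satellite glia moved by more than 1 SD under the other denominators or without 1 library. Thinning to 5000 UMIs moved 13 of 18 shares of cells with a UMI beyond their intervals.

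Sums of endothelial cells hold as few as 3 cells, and Gja1, Slc1a3 and Sox10 have a median of 1 or 2 UMIs per satellite glia cell, which limits what single cells can show. Animal, sex and preparation cannot be told apart between libraries.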
